A study of Mus musculus with 20 samples.

Results

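Lymphocyte adhesion molecules were followed here across 7 groups of mouse samples labelled as pre-B cells: the ligands Icam1 and Icam2, the integrin subunits Itgal, Itgb2, Itga4 and Itgb1, the selectin ligand Selplg, the hyaluronan receptor Cd44, and Cd47. These 9 genes were taken by name, through every probe set annotated to exactly 1 of them, which gave 26 of the 44200 probe sets and 9 of the 17944 genes that the arrays name singly. All 9 genes had a probe set that passed the filter on low signals, with 20 of the 26 probe sets tested in the cell lines and 21 of 26 in the marrow cells. Each gene is described by its brightest tested probe set, and the others are given where they differ.

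Lymphocytes hold on to other cells and to matrix through integrins, which are paired alpha and beta chains. Itgal and Itgb2 encode the chains of LFA-1, which binds ICAM-1 and ICAM-2, and Itga4 and Itgb1 encode VLA-4, which binds VCAM-1 and fibronectin and is known for holding B cell precursors to marrow stroma. Selplg encodes PSGL-1, the scaffold of P-selectin binding sugars, CD44 binds hyaluronan, and CD47 binds SIRP-alpha on phagocytes and associates with integrins.

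The study asked how breaks made in DNA by the RAG recombinase change transcript levels. Its 5 groups of pre-B cell lines were all transformed with v-abl and all received 3 uM STI571 (imatinib, an inhibitor of the v-abl kinase) for 48 hours; arrest by this drug is known to induce RAG. Artemis-deficient lines (n = 3) lack an endonuclease needed to open hairpin-sealed coding ends after RAG cutting, so breaks persist. Artemis- and ATM-deficient lines (n = 2, each on 2 arrays that were averaged) also lack the ATM kinase, which signals breaks. Artemis-deficient lines expressing dominant negative IkB (n = 3, called IkB-DN lines) carry a block on the transcription factor NF-kB. In wild type lines (n = 3) cutting is followed by repair, and RAG-2-deficient lines (n = 3) make no RAG breaks. The marrow samples are described as pre-B cells purified from mice that all carried an IgH transgene and were Artemis-deficient (n = 2) or RAG-1-deficient (n = 2). No source used here gives the construct that drives the dominant negative IkB, the promoter of the IgH transgene, the age of the mice or any pooling.

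Several properties of the samples bear on all results. Titles of the RAG-2-deficient lines carry the letters Bcl, which their descriptions do not explain, and the title of wild type replicate 3 carries the letters ATM although its source is given as wild type. The IkB-DN samples were more alike, with correlations of 0.976 to 0.983 across probe sets, than samples of the other line groups (0.902 to 0.947) and about as alike as technical arrays of the same line (0.982 and 0.984); whether they are separate clones is not given, so p values that use them may be too small. The Atm probe set averaged 6.83 ± 0.004 log2 units in Artemis- and ATM-deficient lines (SD, n = 2), the lowest of the line groups, whose other means lay between 7.31 and 7.52. Rag2 averaged 7.03 ± 2.04 in RAG-2-deficient lines (SD, n = 3), within the span of 6.74 to 8.90 of the other line groups, and whether its probes lie in the deleted part is not stated. Rag1 averaged 9.91 ± 1.29 in Artemis- and ATM-deficient lines (SD, n = 2), the lowest of the line groups, and 11.29 ± 0.29 in Artemis-deficient lines (SD, n = 3). Nfkbia, the gene of IkB-alpha and itself an NF-kB target, averaged 10.99 ± 0.16 in IkB-DN lines and 12.16 ± 0.14 in Artemis-deficient lines (SD, n = 3 each). B lineage markers were above the array median in every line sample, for all 10 genes measured of the 12 listed. In the lines no dendritic, erythroid or endothelial and stromal marker reached the median. The neutrophil and monocyte list was mixed. S100a8, S100a9 and Prtn3 stayed at signals of at most 5.72, with empty cells for Prtn3 on every line array, and Mpo, Cd14, Camp and Ltf at 10.1 or less. Csf1r, at 52.1 to 167, was above the median in every line sample, and Lyz2, Elane and Ngp reached 126, 55.9 and 49. Among T and NK markers, Klrd1 reached 600 and Cd8a 55.5, and the others no more than 12.5. The marrow samples differed on this point, as described with their results.

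Signals below are the authors' values returned to a linear scale. Differences are in log2(signal + 6) for lines and log2(signal + 11) for marrow, a scale that understates changes of dim genes, and a gene is called at an adjusted p below 0.05 in limma, with Benjamini-Hochberg adjustment over all probe sets of a comparison. Signals of different probe sets are not comparable as transcript amounts. Fewer cells of a type and less RNA per cell cannot be told apart in such samples. The share of all genes whose groups do not overlap was counted for the marrow only. A lack of overlap in the lines is therefore a description of the samples named.

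RefSeq promoter sequences (GRCm38.p6) were held for 5 of the 9 genes, Icam1, Itga4, Itgb1, Cd44 and Cd47. Those of Icam1 and Cd44 are shown because Icam1 rose in Artemis-deficient against RAG-deficient cells, in the lines and in the marrow, and Cd44 differed most in size with ATM status. Each is the 250 bases before the transcript start, read 5′ to 3′ on the gene's strand. The Icam1 window is chr9:21015690-21015939 on the plus strand, and the Cd44 window is chr2:102901666-102901915 on the minus strand. Capitals mark matches to GGNNNTTCC on either strand, a form of the NF-kB site.

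Icam1: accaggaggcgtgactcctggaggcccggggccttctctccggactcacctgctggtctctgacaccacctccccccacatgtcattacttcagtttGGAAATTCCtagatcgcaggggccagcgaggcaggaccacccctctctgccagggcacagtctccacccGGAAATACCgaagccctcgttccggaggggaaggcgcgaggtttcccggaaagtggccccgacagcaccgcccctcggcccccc

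Cd44: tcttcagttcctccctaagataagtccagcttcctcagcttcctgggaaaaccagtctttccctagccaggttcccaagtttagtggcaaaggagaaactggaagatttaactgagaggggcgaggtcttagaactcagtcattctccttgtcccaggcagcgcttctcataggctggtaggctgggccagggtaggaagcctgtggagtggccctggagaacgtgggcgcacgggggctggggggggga

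The Icam1 window held GGAAATTCC at 153 to 145 bases before the start, where the pattern matches on both strands, and GGAAATACC at 84 to 76 bases, which matches on the minus strand. In the Cd44 window no match was found, nor in those of Itga4 and Cd47, and the Itgb1 window held GGGCTTTCC at 164 to 156 bases. Of 32536 mouse promoter windows of this length, 15.7% held at least 1 match. A match is a description of letters and shows no binding.

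Icam1, the inducible ligand of LFA-1 and a well known NF-kB target, was brightest in Artemis-deficient and IkB-DN lines. Its signals were 221, 250 and 277 in Artemis-deficient lines, 153 and 191 in Artemis- and ATM-deficient lines, 251, 258 and 271 in IkB-DN lines, 134, 167 and 155 in wild type lines, and 126, 158 and 156 in RAG-2-deficient lines. All 6 samples of the Artemis-deficient and IkB-DN groups thus lay above the 8 others, while the 3 other groups overlapped one another. Against RAG-2-deficient lines, Icam1 rose by 0.74 ± 0.14 log2 units (SE; 1.67-fold, adjusted p = 0.029 in limma) in Artemis-deficient lines and by 0.80 ± 0.14 (adjusted p = 0.00565) in IkB-DN lines. The difference between IkB-DN and Artemis-deficient lines was 0.06, with a 95% interval of -0.24 to 0.37 and an adjusted p of 0.851. Artemis- and ATM-deficient lines were lower than IkB-DN lines by a log2 difference of -0.58 ± 0.16 (adjusted p = 0.0469), and their difference from Artemis-deficient lines was -0.52 ± 0.16 with an adjusted p of 0.262, although these groups did not overlap. Against wild type lines, the Artemis-deficient lines differed by 0.69 ± 0.14 (adjusted p = 0.0601).

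The call in Artemis-deficient against RAG-2-deficient lines was held by few samples. It ended when any RAG-2-deficient replicate (adjusted p of 0.119, 0.0516 and 0.0606 for replicates 1, 2 and 3) or Artemis-deficient replicate 2 or 3 (0.0821 and 0.0765) was left out, with differences of 0.64 to 0.82 over all 6 omissions, and when the IkB-DN samples did not contribute to the shared spread (adjusted p = 0.0984). The call in Artemis- and ATM-deficient against IkB-DN lines ended without any 1 of the 5 samples, at differences of -0.74 to -0.43 and adjusted p of 0.0772 to 0.284.

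**Figure D1:**
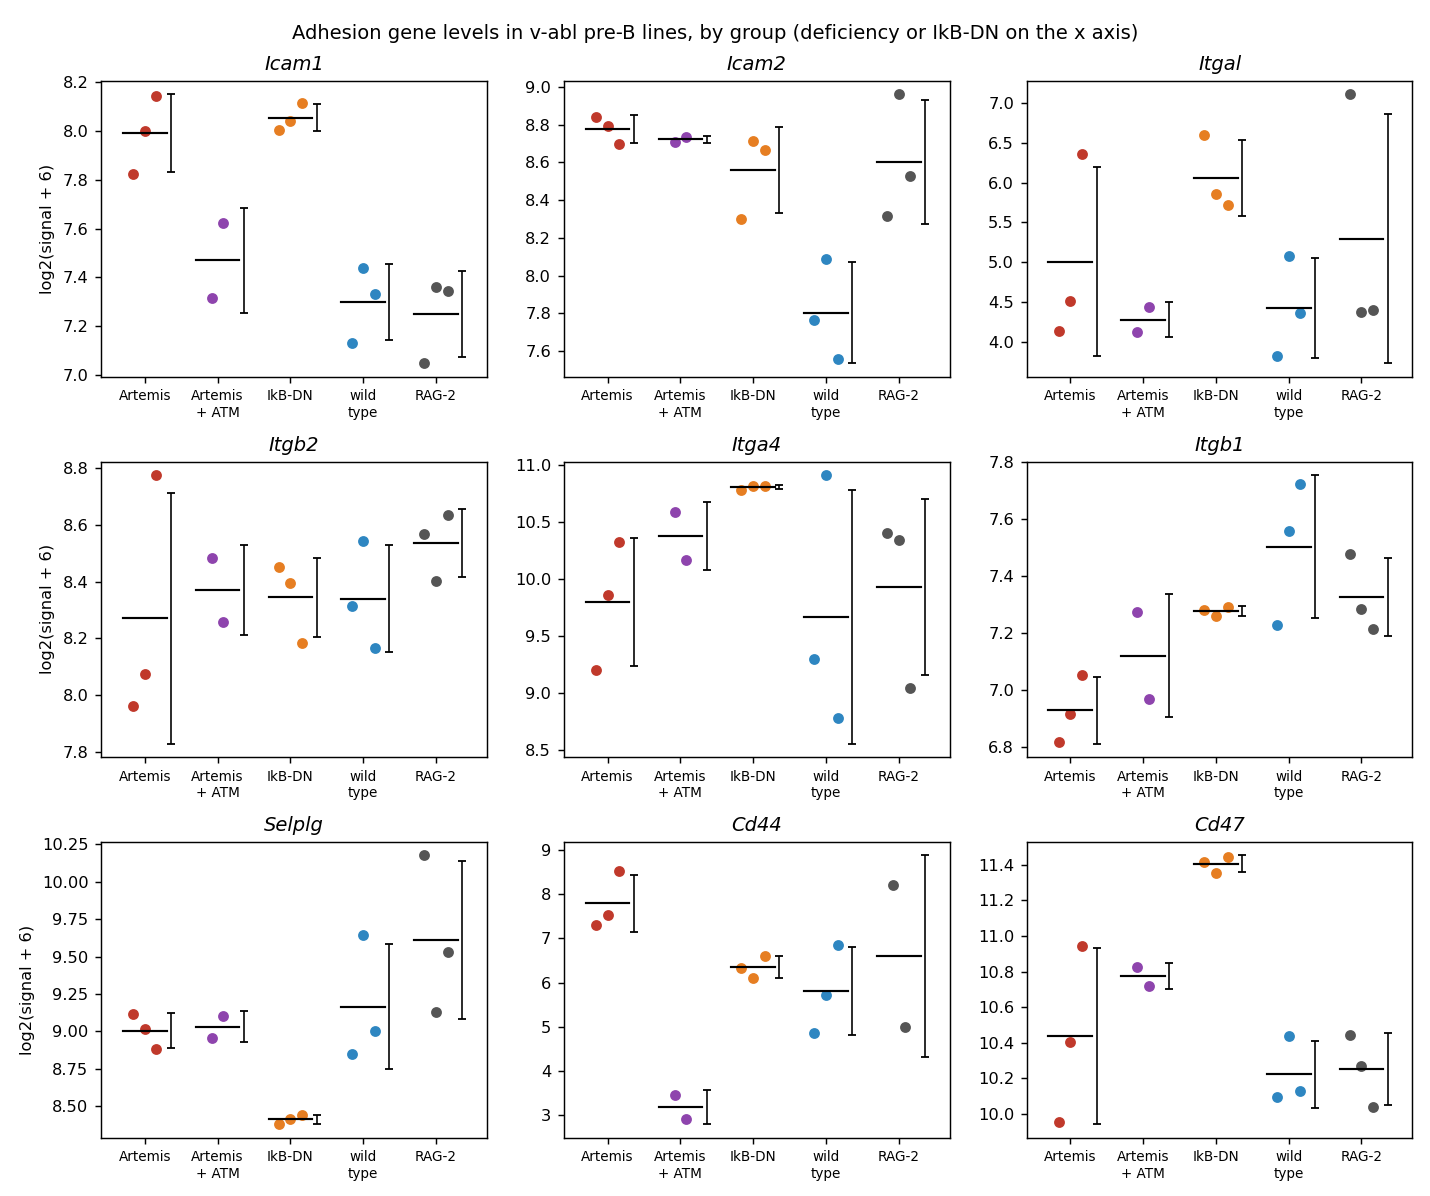
Level of each adhesion gene, as log2(signal + 6), in the 14 line samples; points are samples, horizontal bars group means and error bars SD, with groups named by their deficiency on the x axis and an own y range in each panel. Icam1 was highest in the Artemis-deficient and IkB-DN lines, Cd44 lowest in the 2 Artemis- and ATM-deficient lines, and Cd47 highest and Selplg lowest in the 3 IkB-DN lines.

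Icam2, the constitutive ligand of LFA-1, set the wild type lines apart. Its signals were 453, 437 and 410 in Artemis-deficient lines, against 211, 266 and 182 in wild type lines. The other groups were near the Artemis-deficient level, at 413 and 420 in Artemis- and ATM-deficient lines, 309, 414 and 401 in IkB-DN lines, and 312, 492 and 363 in RAG-2-deficient lines. Every wild type sample was below every sample of the 4 other groups. Icam2 was higher in Artemis-deficient than in wild type lines by 0.98 ± 0.18 (1.97-fold, adjusted p = 0.0403), and wild type minus RAG-2-deficient lines gave -0.80 ± 0.18 (adjusted p = 0.0713), which was not called. Without wild type replicate 3, whose title carries ATM, the difference between Artemis-deficient and wild type lines was 0.85 (adjusted p = 0.0789). The call was also lost without wild type replicate 1 (0.0876), without any Artemis-deficient replicate (0.0879, 0.102 and 0.0698) and without the IkB-DN samples in the fit (0.112). For wild type minus RAG-2-deficient lines, leaving out wild type replicate 2 brought the difference to -0.94 and a call (adjusted p = 0.0364).

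The chains of LFA-1 behaved unlike each other in the lines. Itgal was dim and uneven, at 11.6, 16.9 and 75.9 in Artemis-deficient lines, 11.4 and 15.6 in Artemis- and ATM-deficient lines, 90.9, 51.8 and 46.6 in IkB-DN lines, 8.18, 27.8 and 14.7 in wild type lines, and 132, 14.8 and 15.2 in RAG-2-deficient lines. The array medians were 26.8 to 27.7, so only the IkB-DN lines were above the median in all their samples, and RAG-2-deficient replicate 1 was the brightest of all. No line comparison of Itgal was called, and the SE of its differences was 0.72 or 0.81. Its beta chain Itgb2 lay between 243 and 433 in all 14 line samples, its groups overlapped in all 8 line comparisons, and its differences ran no further than -0.27 to 0.10.

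Itga4, the alpha chain of VLA-4, was bright in every line and varied widely within groups other than the IkB-DN lines. Its signals were 584, 925 and 1280 in Artemis-deficient lines, 1530 and 1140 in Artemis- and ATM-deficient lines, 1760, 1790 and 1790 in IkB-DN lines, 626, 1920 and 435 in wild type lines, and 1350, 1290 and 521 in RAG-2-deficient lines. IkB-DN lines lay above all Artemis-deficient samples by 1.01 ± 0.50, which was not called (adjusted p = 0.299). Wild type replicate 2 held the highest level of all lines and wild type replicate 3 the lowest. The 3 other tested Itga4 probe sets gave the same extremes in the wild type lines, such as 306 in replicate 2 and 14.8 in replicate 3 on the third brightest.

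Itgb1, the shared beta chain of VLA-4, was lowest in Artemis-deficient lines, at 107, 115 and 126. It was 148 and 119 in Artemis- and ATM-deficient lines, 149, 147 and 151 in IkB-DN lines, 144, 182 and 205 in wild type lines, and 172, 150 and 142 in RAG-2-deficient lines. Artemis-deficient samples lay below all wild type and all RAG-2-deficient samples, yet neither difference was called: -0.58 ± 0.15 against wild type (adjusted p = 0.115) and -0.40 ± 0.15 against RAG-2-deficient lines (adjusted p = 0.253). The 3 other tested Itgb1 probe sets gave -0.55, -0.89 and -1.13 against wild type lines, none of them called.

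Selplg, which encodes the P-selectin ligand PSGL-1, was lowest in IkB-DN lines. Its signals were 327, 335 and 342 there, against 549, 513 and 466 in Artemis-deficient lines and 1150, 554 and 733 in RAG-2-deficient lines. Artemis- and ATM-deficient lines had 492 and 545, and wild type lines 456, 793 and 508. The IkB-DN samples were below every other line sample. Selplg fell by 1.20 log2 units in IkB-DN against RAG-2-deficient lines (SE 0.24, adjusted p = 0.0105), and its difference from Artemis-deficient lines, -0.59 ± 0.24, was not called (adjusted p = 0.212). In Artemis-deficient against RAG-2-deficient lines the difference was -0.61 ± 0.24 (adjusted p = 0.292), with groups that did not overlap, and without RAG-2-deficient replicate 1 it was -0.32 (adjusted p = 0.686).

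Cd47, the ligand of SIRP-alpha, was highest in IkB-DN lines. Its signals were 2730, 2610 and 2790 in IkB-DN lines, against 988, 1350 and 1970 in Artemis-deficient lines and 1390, 1230 and 1050 in RAG-2-deficient lines. They were 1810 and 1680 in Artemis- and ATM-deficient lines and 1090, 1380 and 1120 in wild type lines. All 3 IkB-DN samples were above the 11 other line samples, and the remaining groups overlapped their neighbours in the order of means. Cd47 rose in IkB-DN lines by 1.16 ± 0.20 against RAG-2-deficient lines (2.23-fold, adjusted p = 0.00529) and by 0.97 ± 0.20 against Artemis-deficient lines (1.96-fold, adjusted p = 0.0306). A further pair of Cd47 probe sets was called in IkB-DN against RAG-2-deficient lines, at 0.93 and 0.71, and against Artemis-deficient lines the same pair gave 0.71 and 0.79 with adjusted p of 0.0765 and 0.0629. The remaining tested Cd47 probe set was dim and its groups lay closer together. It averaged 5.39 ± 0.22 in IkB-DN, 4.86 ± 0.30 in RAG-2-deficient and 4.97 ± 0.27 in Artemis-deficient lines (log2 units, SD, n = 3 each). The call against Artemis-deficient lines ended without Artemis-deficient replicate 1 or 2 (adjusted p = 0.0948 and 0.084) and without any IkB-DN replicate (0.116, 0.116 and 0.102). Without Artemis-deficient replicate 3, the brightest of its group, the difference was 1.22 (adjusted p = 0.00363). With only these 2 groups in the fit, Cd47 missed the threshold (adjusted p = 0.0596) and Selplg passed it (adjusted p = 0.0315).

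Cd44, the hyaluronan receptor, covered the widest range of the 9 genes in the lines. Its signals were 4.96 and 1.49 in Artemis- and ATM-deficient lines, far below the array median, against 153, 179 and 364 in Artemis-deficient lines. IkB-DN lines had 75.0, 62.9 and 90.9, and wild type lines 22.8, 46.7 and 109. RAG-2-deficient replicates 1 and 3 had 291 and 25.8, and replicate 2 has an empty cell, which the fit drops. Artemis- and ATM-deficient lines were below all other line samples with a value. Against Artemis-deficient lines Cd44 was called lower in Artemis- and ATM-deficient lines (fitted difference -4.61, SE 0.80, adjusted p = 0.0449), and likewise against IkB-DN lines (-3.17, SE 0.80, adjusted p = 0.0405). A floor chosen after the values were seen raised the dim or empty arrays to their array's median signal. On this probe set the group means then lay 6.68-fold below Artemis-deficient and 2.45-fold below IkB-DN lines. These folds allow for the dim signals and not for the spread between samples. On the dimmest tested Cd44 probe set Artemis-deficient lines averaged 6.01 log2 units, above the floor of 5.05. IkB-DN lines averaged 4.53 there, below the floor, so no fall against them could be bounded. Against RAG-2-deficient lines, with 2 samples a group, the difference was -3.42 ± 0.88 (adjusted p = 0.118). That group rests on replicates 1 and 3: without replicate 1 the difference was -1.81 (adjusted p = 0.421), and without replicate 3 it was -5.03 (adjusted p = 0.0172), each time with 1 RAG-2-deficient sample left, which is assumed to vary like the other groups. Artemis-deficient minus wild type lines gave 1.99 ± 0.72, a difference that was not called (adjusted p = 0.277) although the groups did not overlap.

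The fitted size depends on the pseudocount, since the Artemis- and ATM-deficient signals were far below the array median, and without a pseudocount it was -6.35 against Artemis-deficient lines. Leaving out any of the 5 samples compared ended the call against Artemis-deficient lines, with adjusted p of 0.0738, 0.0802 and 0.113 without Artemis-deficient replicates 1, 2 and 3, and 0.123 and 0.225 without Artemis- and ATM-deficient replicates 1 and 2. Against IkB-DN lines the call likewise ended without any 1 of the 5 samples, at 0.099 to 0.186. The other tested Cd44 probe sets ran the same way without being called. The next brightest read 2.18 and 8.03 in Artemis- and ATM-deficient lines against 106, 132 and 254 in Artemis-deficient lines (-3.89, adjusted p = 0.111). On the dimmest of the 3 the difference was -3.38 (adjusted p = 0.165), with a value in only 1 of the Artemis- and ATM-deficient lines. RAG-2-deficient replicate 2 was empty on all 3 of these probe sets.

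**Figure D2:**
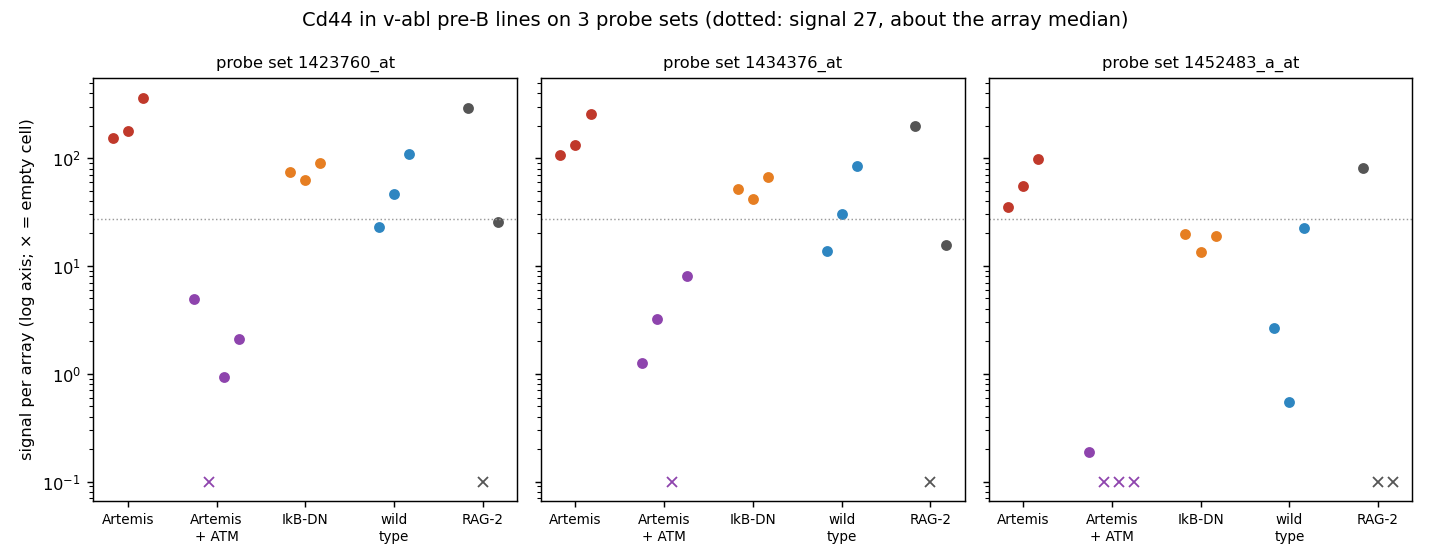
Signal of 3 Cd44 probe sets on each of the 16 line arrays, on a log axis, with a cross at the foot for an empty cell and a dotted line at a signal of 27. On the brightest probe set the Artemis- and ATM-deficient arrays lie at 4.96 or below or are empty, while the 3 Artemis-deficient arrays lie at 153 to 364 and the RAG-2-deficient arrays are split between 291, 25.8 and an empty cell.

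By comparison, the members were called as follows, beside the share of all genes called. In Artemis-deficient against RAG-2-deficient lines, 1 of 9 members was called (Icam1, higher), where 1.11% of 9873 genes were. IkB-DN against RAG-2-deficient lines gave 3 of 9 (Icam1 and Cd47 higher, Selplg lower), where 10.6% of all genes were called. In wild type against RAG-2-deficient lines limma called 0 members at a background of 0.821%, with 1 of 9 (Icam2) at an unadjusted p under 0.05 where 13.4% of all genes were, and in Artemis- and ATM-deficient against RAG-2-deficient lines it called 0 at 0.679%, with 2 of 9 (Cd44 and Cd47) at an unadjusted p under 0.05 where 12.2% of all genes were. Cd44 was the 1 member called in Artemis- and ATM-deficient against Artemis-deficient lines (0.334% of all genes), Cd47 in IkB-DN against Artemis-deficient lines (2.4%), and Icam2 in Artemis-deficient against wild type lines (0.577%). Icam1 and Cd44, both lower, were called in Artemis- and ATM-deficient against IkB-DN lines, where 7.14% of all genes were. The members' median difference ran from -0.43 in that last comparison to 0.21 in Artemis-deficient against wild type lines, and the median of all genes stayed between -0.02 and 0.02. Comparisons against RAG-2-deficient lines share those 3 samples, as others share the Artemis-deficient or the IkB-DN samples, so their counts are not independent.

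**Figure D3:**
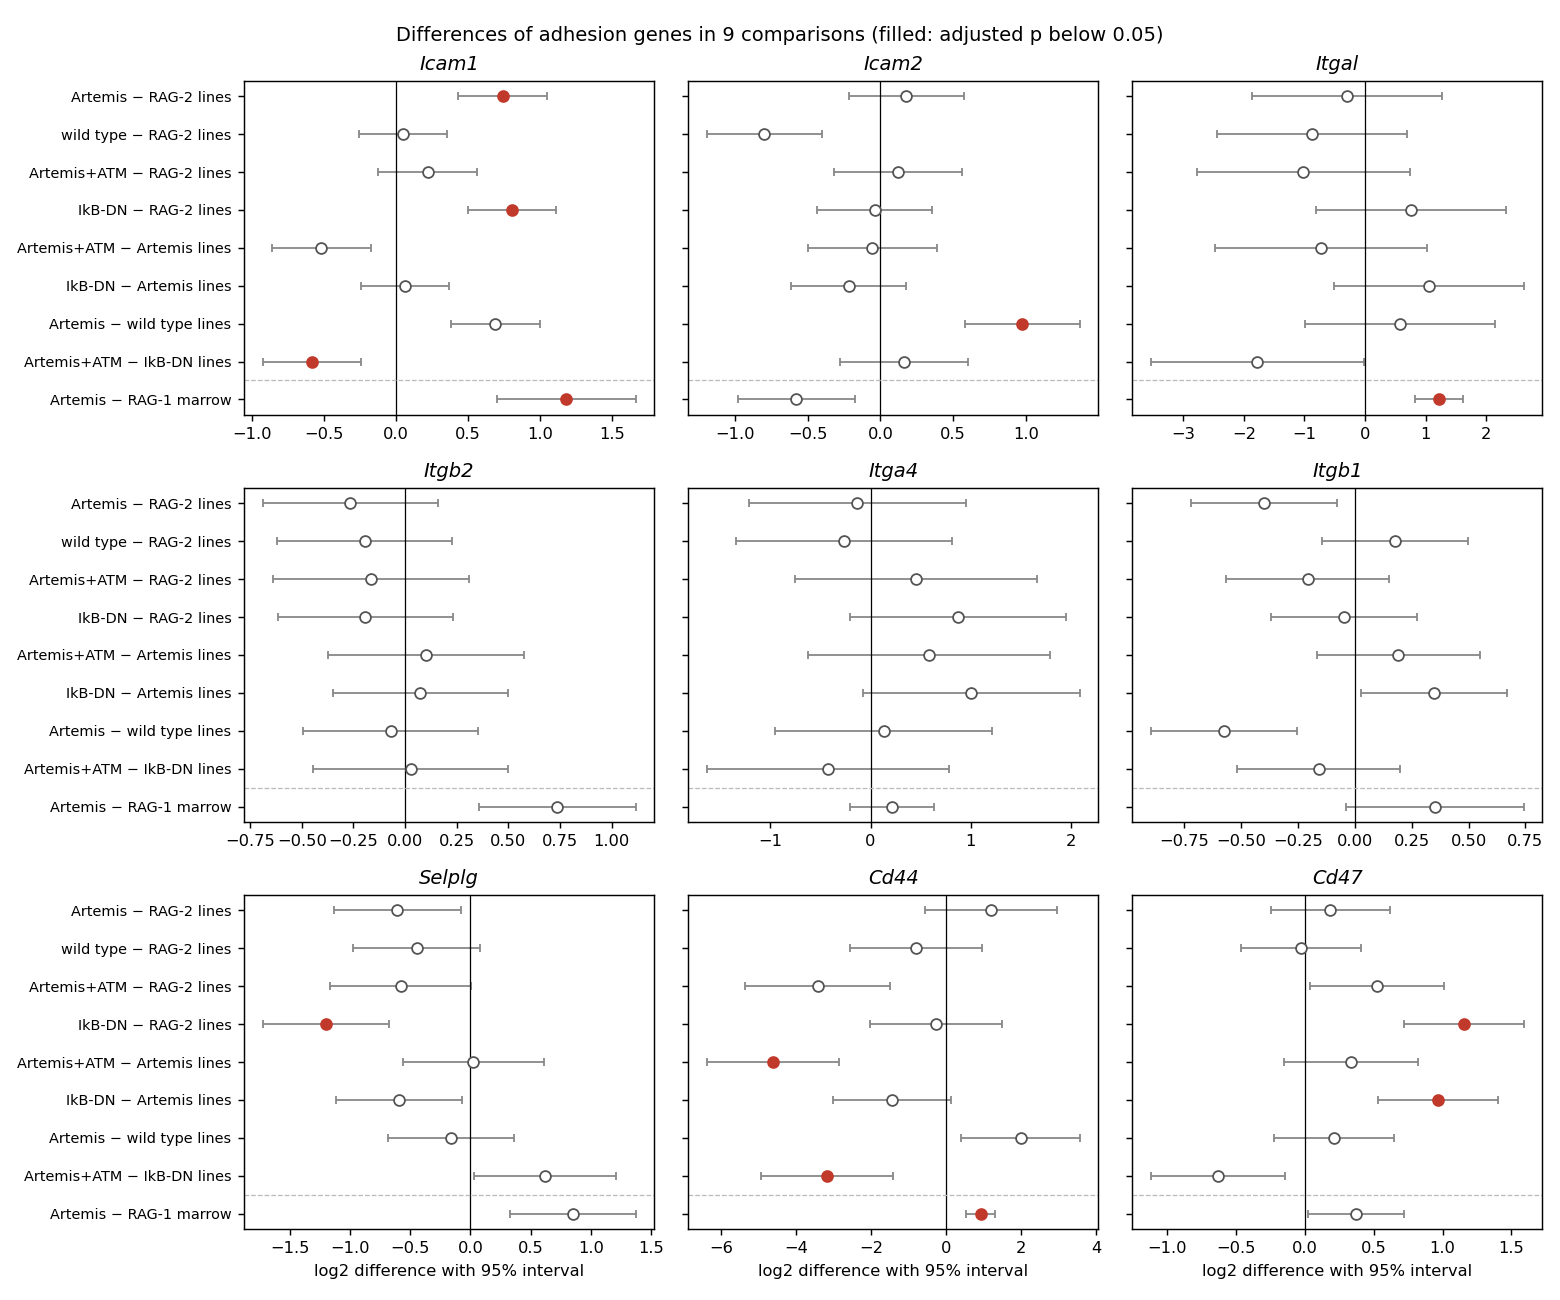
Log2 difference of each adhesion gene in the 8 line comparisons and, below the dashed line, the marrow comparison; points are limma estimates, bars 95% intervals, filled points have an adjusted p below 0.05, and each panel has its own x range. On each gene's brightest tested probe set, Icam1 and Cd44 were called in 4 and 3 comparisons, while Itgb2, Itga4 and Itgb1 were called in none. Another Itga4 probe set, not drawn here, was called lower in Artemis-deficient marrow.

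Other adhesion genes were followed through lists chosen for this description. Of 6 other integrin subunits tested, 2 were called higher in IkB-DN than in RAG-2-deficient lines and 0 lower, where 10.6% of all genes were called: Itgam, the alpha chain that pairs with Itgb2 in Mac-1, by 4.33 ± 0.76 (adjusted p = 0.00557) and Itgav by 0.67 ± 0.17 (adjusted p = 0.0256). Itgam had signals of 452, 389 and 431 in IkB-DN lines and 38.5, 12.5 and 5.76 in RAG-2-deficient lines. It was 780 and 126 in Artemis- and ATM-deficient lines and 50.1, 48.7 and 225 in Artemis-deficient lines, so a high level was found outside the IkB-DN lines too. The neutrophil and monocyte marker list summed to 262 to 344 in IkB-DN lines and to 110 to 223 in the other lines. Of its 11 measured genes 4 were tested. Against RAG-2-deficient lines 2 of the 4 were called higher in IkB-DN lines, and against Artemis-deficient lines 1 of the 4. Tested genes Lyz2, Ngp and Elane had median signals of 9.36, 15.9 and 20.8 over the lines, below the array medians. The filter passes a gene that is bright in only 2 samples, so these counts are descriptions. The T and NK list summed to 445 to 624 in IkB-DN lines and 21.8 to 288 elsewhere, mostly from Klrd1, whose highest signal was 600, while Cd4 cells were empty on every line array. The part of these markers in the IkB-DN results was not tested.

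Among 8 genes that build the sugars and sulphates of PSGL-1, St3gal6, a sialyltransferase, rose and C1galt1, which extends O-glycans, fell in IkB-DN lines. St3gal6 was 1600, 1590 and 1530 in IkB-DN lines, against 361, 505 and 290 in Artemis-deficient lines and 95, 449 and 299 in RAG-2-deficient lines. Its differences were 2.05 ± 0.45 (adjusted p = 0.0408) and 2.71 ± 0.45 (adjusted p = 0.0044), and those of C1galt1 were -0.98 ± 0.15 (adjusted p = 0.0103) and -1.12 ± 0.15 (adjusted p = 0.00171). The other 6 of the 8 were not called in either comparison, where 2.4% of all genes were called against Artemis-deficient and 10.6% against RAG-2-deficient lines. C1galt1 was 581, 519 and 582 in IkB-DN lines and 1090, 1360 and 1250 in RAG-2-deficient lines. Wild type lines were low too, at 769, 853 and 635, a difference from RAG-2-deficient lines of -0.71 that was not called (adjusted p = 0.0584 in limma).

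Of 20 genes of integrin activation and linkage to actin, 2 were called higher in IkB-DN against RAG-2-deficient lines: Vcl (vinculin) by 1.24 and the actin regulator Coro1a by 0.86. That share is close to the 10.6% of all genes called, and of 9 CD44 and CD47 partner genes limma called 0, with 2 at an unadjusted p under 0.05. Against Artemis-deficient lines the called genes were Vcl, by 1.28, and Sipa1, which inactivates the integrin-activating GTPase Rap1, by 1.10. Vcl read 129, 118 and 114 in IkB-DN lines, against 40.3, 41.3 and 58.7 in Artemis-deficient lines and 52.0, 49.7 and 41.6 in RAG-2-deficient lines, with no overlap. In Artemis-deficient against RAG-2-deficient lines no gene of the 5 other adhesion lists was called by limma, and 5 of their 54 tested genes had an unadjusted p under 0.05, where 14.2% of all genes did. Coro1a was called higher in Artemis-deficient than in wild type lines, by 1.13 (adjusted p = 0.0455). Madcam1, an addressin of vessels, was at or below 7.61 in RAG-2-deficient lines and at most 36 in any line, near or under the array medians, so no fold is given although limma called 3 of the 4 differences from those lines. Cd24a was lower in IkB-DN than in RAG-2-deficient lines by a log2 difference of -0.27, and the tetraspanin gene Cd53 was lower in Artemis- and ATM-deficient than in IkB-DN lines, by -0.58.

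In the marrow samples, Icam1, Itgal and Cd44 were higher in Artemis-deficient than in RAG-1-deficient marrow. These are 3 of 9 members where 2.65% of 9933 genes were called, and 7 of 9 had an unadjusted p under 0.05, as did 17.7% of all genes. The members' median difference was 0.74, against -0.001 for all genes. Marker lists moved with these results. Neutrophil and monocyte markers, with positive differences for all 11 and 1 of them called, summed to signals of 75150 and 69630 in Artemis-deficient marrow and 39710 and 55560 in RAG-1-deficient marrow. B lineage sums were 20430 and 14340 in Artemis-deficient and 30190 and 34290 in RAG-1-deficient marrow. The neutrophil and monocyte sum was thus above the B lineage sum in every marrow sample, although signals of different probe sets are not comparable as amounts. S100a8 read 11800 to 18800 and Cd79a 1630 to 5120 over the marrow samples, so the values below cannot be taken as those of pre-B cells alone. Only 1 of the 10 B lineage genes tested had a positive difference, 2 were called lower, and their median difference was -0.954. The B lineage list includes Rag1, the gene targeted in RAG-1-deficient mice. Rag1 averaged 10.55 ± 0.38 log2 units in Artemis-deficient and 12.55 ± 0.22 in RAG-1-deficient marrow (SD, n = 2 each), and adds to the difference between the sums. Dendritic markers summed to 5471 and 7771 in Artemis-deficient and 836 and 1800 in RAG-1-deficient marrow, with 3 of 4 tested genes called higher, and T and NK markers to 4578 and 4479 in Artemis-deficient and 2082 and 2564 in RAG-1-deficient marrow. Erythroid markers summed to 2033 and 2727 in Artemis-deficient and 3733 and 3530 in RAG-1-deficient marrow, and endothelial and stromal markers to 2592 and 6622 in Artemis-deficient and 2396 and 2294 in RAG-1-deficient marrow. LFA-1, CD44 and PSGL-1 are known on myeloid and other leukocytes as well as on B cells, and the part of these other cells in the marrow results was not tested.

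Icam1 read 312 and 337 in Artemis-deficient marrow, against 123 and 151 in RAG-1-deficient marrow. It rose by 1.18 ± 0.21 (2.27-fold, adjusted p = 0.0358 in limma), the same direction as in the Artemis-deficient lines. Icam2 read 461 and 435 in Artemis-deficient marrow, against 627 and 724 in RAG-1-deficient marrow, and its difference of -0.58 ± 0.17 was not called (adjusted p = 0.142).

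Itgal was 1610 and 1890 in Artemis-deficient marrow, against 708 and 781 in RAG-1-deficient marrow. It rose by 1.22 ± 0.17 (2.33-fold, adjusted p = 0.0258), and a dimmer Itgal probe set gave 0.57 (adjusted p = 0.267). Its partner Itgb2 was 2230 and 2240 in Artemis-deficient marrow, against 1230 and 1460 in RAG-1-deficient marrow, a difference of 0.74 ± 0.16 that missed the threshold (adjusted p = 0.0639). Groups did not overlap for either chain of LFA-1, which was also so for 50.7% of all 9933 genes tested in marrow.

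The chains of VLA-4 were not called on their brightest probe sets. Itga4 read 1810 and 1480 in Artemis-deficient marrow, against 1530 and 1290 in RAG-1-deficient marrow (0.22 ± 0.18, adjusted p = 0.605), and these overlap. Another Itga4 probe set went the other way: it read 276 and 545 in Artemis-deficient marrow, against 1480 and 1550 in RAG-1-deficient marrow, and was called lower at -1.93 ± 0.29 (adjusted p = 0.0283). The 2 remaining tested Itga4 probe sets gave -0.23 and -0.08 and were not called. Itgb1 read 523 and 514 in Artemis-deficient marrow and 397 and 410 in RAG-1-deficient marrow, a difference of 0.35 ± 0.17 (adjusted p = 0.343).

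Cd44 read 3390 and 3900 in Artemis-deficient marrow, against 1770 and 2050 in RAG-1-deficient marrow. It rose by 0.93 ± 0.17 (1.90-fold, adjusted p = 0.0385), and its 2 other tested probe sets were called too, at 1.00 (adjusted p = 0.0306) and 1.21 (adjusted p = 0.0279). Selplg read 2560 and 3290 in Artemis-deficient marrow, against 1330 and 1930 in RAG-1-deficient marrow, and its difference of 0.85 ± 0.22 was not called (adjusted p = 0.102). Cd47 was 5060 and 5040 in Artemis-deficient marrow, against 3790 and 4020 in RAG-1-deficient marrow (0.37 ± 0.15, adjusted p = 0.268).

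The 3 marrow calls rest on few samples. Without RAG-1-deficient replicate 1 the adjusted p was 0.283 for Icam1, 0.206 for Itgal and 0.275 for Cd44, and without RAG-1-deficient replicate 2 it was 0.138, 0.088 and 0.133 in the same order. Cd44 also missed the threshold without Artemis-deficient replicate 2 (0.0528), and Selplg passed it without Artemis-deficient replicate 1 (difference 1.03, adjusted p = 0.0395). With 1 sample left in a group, that sample is assumed to vary like the other pair. Beyond the members, Itgax, the alpha chain that pairs with Itgb2 in CD11c/CD18 and marks dendritic cells, was called higher at 1.04 ± 0.20 (adjusted p = 0.0437; 803 and 844 in Artemis-deficient marrow, against 341 and 460 in RAG-1-deficient marrow). Sirpa, the CD47 receptor of phagocytes, was called higher at 1.38 ± 0.21 (adjusted p = 0.0289; 584 and 803 in Artemis-deficient marrow, against 239 and 276 in RAG-1-deficient marrow).

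**Figure D4:**
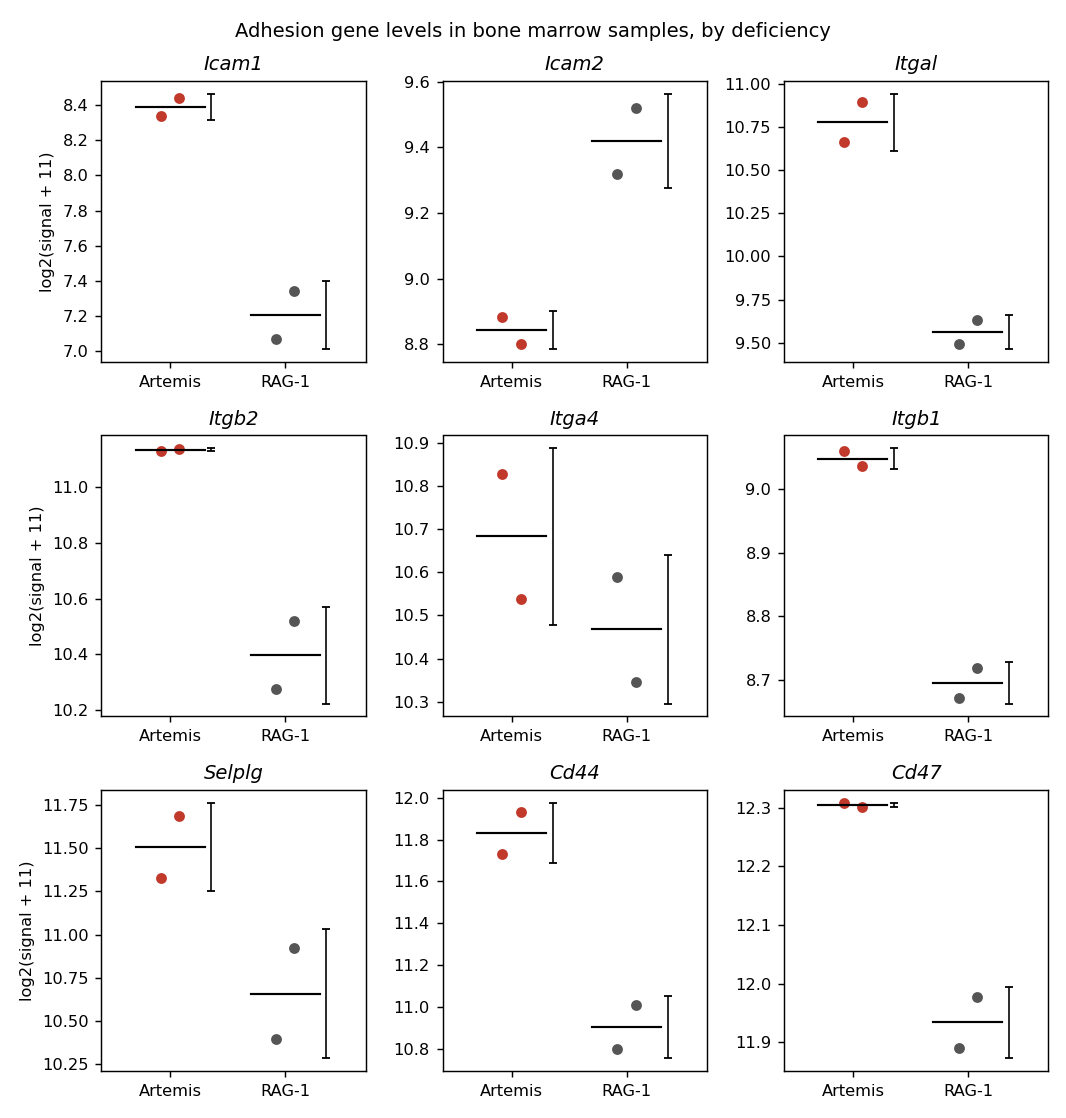
Level of each adhesion gene, as log2(signal + 11), in 2 Artemis-deficient and 2 RAG-1-deficient marrow samples; points are samples, horizontal bars means and error bars SD, with an own y range in each panel. The 2 groups are apart for 8 of the 9 genes, as for 50.7% of all genes tested, and overlap for Itga4, and Icam2 is the gene with lower values in Artemis-deficient marrow.

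Across the 14 line samples the members were compared with one another. The highest Pearson correlation of log2 levels between members was 0.78, for Itga4 and Cd47, and the lowest were -0.69 for Icam2 and Itgb1 and -0.68 for Icam1 and Selplg. Itgal and Itgb2, partners in LFA-1, gave 0.47, and Itga4 and Itgb1, partners in VLA-4, gave 0.10. These samples fall into 5 genotypes and 3 of them are the near-identical IkB-DN samples, so the values are descriptions. By the same measure, the genes most like Icam1 were Zfp982 (0.94), Fam3c (0.92) and 2810002D19Rik (0.91), and those most like Cd47 were Muc13 (0.96), Ifitm3 (0.93) and Srek1ip1 (0.92). Icam2 was most like Lgals9 (0.91), Cyth1 (0.89) and Ifi209 (0.87), and Itgal most like Cdpf1 (0.94), Uvssa (0.92) and Spns2 (0.91). For Itgb2 they were Plac8 (0.87), Coq10b (0.87) and Snx9 (0.84), for Itga4 Amer1 (0.91), Pde3b (0.90) and Haus3 (0.89), and for Itgb1 Dym, Jakmip1 (each 0.87) and Fut8 (0.86). Selplg was most like Eif3b (0.93), Snx8 (0.91) and Prrc1 (0.91), and Cd44, over 13 samples, most like Crat, Gfpt1 (each 0.84) and Styx (0.83).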

How the data were processed

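Per the labels, RNA was hybridised to Affymetrix Mouse 430 v2 arrays and read with GeneChip Operating Software 1.2.0.037. The authors deposited log10 signals for 44200 probe sets; the base was inferred from the values, and no source used here gives the summary method or scaling. Of the cells 14.7% were empty and were left so, except that sums over marker lists count them as 0. Arrays have no read depth, and their number limits the precision.

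Values were returned to signals, a pseudocount (25th percentile of the set: 6 in lines, 11 in marrow) was added, and log2 taken. Probe sets with at least 2 samples at or above their array's median were kept (21921 in lines, 19520 in marrow). Array medians were 26.8 to 27.7 in lines and 46.9 to 47.8 in marrow. The sets may have been scaled apart, which is not stated, so they were fitted apart. The fits used limma 3.58.1 in R 4.3.3 with an intensity trend, over 14 line samples in 5 groups (9 residual and 3.06 prior degrees of freedom) and 4 marrow samples (2 and 5.40). The 9 comparisons were two-sided. The steps were tested on simulated data. Of the probe sets, 34294 named 1 gene, 916 several and 8990 none; only the first were named. A gene stands for its probe set with the highest mean level. Promoters came from RefSeq (GRCm38.p6), and figures from matplotlib 3.10.9 in Python 3.11.15.

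The genes and lists were chosen with earlier results of these data known. Named genes are the members, up to 4 called genes per list and comparison, the 3 genes most correlated with each member, and targeted genes. Groups follow the source names, and the design text calls samples of a group biological replicates. Alternatives varied the pseudocount, normalization, filter, trend, samples in the fit, technical arrays and empty cells.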

Additional observations from a re-analysis of the deposited data

Results flagged for a closer look

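Of the 9 genes, 3 had opposite directions in the Artemis-deficient against the RAG-deficient cells of the lines and of the marrow, with every Artemis-deficient sample on 1 side of the mean of its RAG-deficient group in the lines and on the other side in the marrow. The difference between lines and marrow was not tested, and the 2 sets differ in RAG gene, drug treatment, array median signal and marker content. For Selplg the difference was -0.61 in the lines and 0.85 in the marrow, and without RAG-2-deficient replicate 1 the line difference was -0.32. Itgb1 gave -0.40 in the lines and 0.35 in the marrow on its brightest probe set. Among its other tested probe sets, 1 did not rise in the marrow and 2 had higher means in Artemis-deficient marrow. Icam2 gave 0.18 in the lines and -0.58 in the marrow. None of these 6 differences was called. Groups of 3 or fewer samples were not examined for single outlying samples.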

How the results depend on the processing

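The 30 member results followed here were those with an unadjusted p under 0.05 in the main fit. All 365 of their alternative values kept their direction. These alternatives reuse all or most of the same samples, so a kept direction is a weak check. It says nothing of the member results that were not selected. The 3 calls in IkB-DN against RAG-2-deficient lines held in every alternative run, single omissions included. Other counts of called members moved. Artemis-deficient against RAG-2-deficient lines gave 1, but 0 when only the compared groups were fitted or the IkB-DN samples were left out of the fit, and 0 to 1 with a sample omitted. Artemis- and ATM-deficient against Artemis-deficient lines gave 1, but 0 without the intensity trend, without the IkB-DN samples or with empty cells set at signal 0, an alternative chosen after seeing the data, and 0 to 0 with a sample omitted. Artemis-deficient against wild type lines gave 1, but 0 without the trend, with only the compared groups or without the IkB-DN samples, and 0 to 1 with a sample omitted. Artemis- and ATM-deficient against IkB-DN lines gave 2, but 1 without the filter, with the first technical array or with empty cells at 0, 0 without the trend, 5 with only the compared groups, and 0 to 0 with a sample omitted. Marrow gave 3, but 0 without the trend and 0 to 4 with a sample omitted. With a sample omitted, wild type and Artemis- and ATM-deficient against RAG-2-deficient lines, each at 0, gave 0 to 1, and IkB-DN against Artemis-deficient lines, at 1, gave 0 to 1. The causes were not tested. No paired analysis was possible because the numbers in the titles tie no sample of a group to a sample of another. The titles do not say whether these numbers name separate lines, clones or mice. Whether the IkB-DN samples are separate clones, or share a parent line with other samples, is not given. Small groups and signals near background limit what these arrays can show, most of all for Cd44 and Itgal in the lines.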
